A study of Arabidopsis thaliana with 87 samples.

Results

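The comparison covers ribosome-bound RNA of Arabidopsis thaliana seedlings that had been hypoxic and were back in air (2R) against seedlings that were never hypoxic (2NS). It held 3 TRAP-seq libraries a side, 6 of the 87 samples of a series on hypoxia from chromatin to translation. TRAP (translating ribosome affinity purification) pulls down tagged ribosomes with the RNA they carry. Genes of the 5 nuclear chromosomes with a mean of at least 1 RPKM (reads scaled by gene length and library size) over the TRAP columns were taken, 16190 of 37899 gene identifiers, of which 15992 were protein-coding. Seedlings were 7 days old, whole, and grown on plates with 1% sucrose under 16 h of light and 8 h of dark. All treatments began at the end of the light period. 2R seedlings had 2 h of hypoxia in an argon-filled chamber in darkness and then 2 h of reoxygenation. A further group, 2HS, was harvested at the end of 2 h of hypoxia in darkness, and 2NS after 2 h of darkness in air. The filter took the mean over 2R, 2HS and 2NS. Genes low in air could thus pass it through the groups where they were high, while genes low throughout were left out. Counts of group members called higher rest in part on this filter. Every TRAP group carried p35S:RPL18-FLAG, a FLAG-tagged ribosomal protein driven by the 35S promoter, so RNA of cells in which that promoter is weak is under-represented. The labels do not state whether 2R seedlings were in light or darkness during reoxygenation. 2R was harvested 4 h after the start and 2NS after 2 h, with no TRAP control in air at 4 h, so the history of hypoxia and the time of night cannot be told apart within TRAP.

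When oxygen is short, plant cells stabilise a group of ethylene response factors that switch on a core set of genes for fermentation, sucrose breakdown and oxygen sensing, while the translation of most other mRNAs is held back. On return of oxygen, the factors are again marked for degradation, stored mRNAs re-enter polysomes, and a burst of reactive oxygen species calls for chaperones, glutathione and alternative electron sinks. Ribosome-bound RNA reads out which messages are on ribosomes during that switch.

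The authors deposited 1 mean per group. Whole reads of the single libraries could be recovered from the digits of those means, and gave totals of 5.10, 4.35 and 3.54 M reads in 2R and 8.96, 5.88 and 2.53 M in 2NS. The libraries are called the first, the second and the third below by falling total, an order that is no replicate number. Both groups were resolved for 13704 genes, which could be tested. The other 2486 genes, with a median level of 42.6 RPKM against 5.19 RPKM for the tested ones, are described by the means alone. Changes are on the log2(RPKM + 1) scale, centred on the median gene, which lay 0.12 higher in 2R before centring. "Rose", "fell" and "called" refer to limma with a Benjamini-Hochberg adjusted p below 0.05, and ± after a change is its standard error. Nothing in the labels says that replicates came from separate plantings, so p-values measure the spread between these samples. Between libraries, log2 levels of tested genes had Pearson correlations of 0.933 to 0.963 within 2R and of 0.951 to 0.973 within 2NS. The second 2R library lay closer to the 2NS libraries (0.913 to 0.939) than did the first (0.911 to 0.926) and the third (0.904 to 0.919). Whole-seedling tissue was represented, with LHCB6 of the light-harvesting complex at a mean of 2828 RPKM in 2R and 4422 in 2NS, and CASP1 of the root endodermis at 24.0 and 32.8. RPL18B (AT3G05590), whose tagged copy the line carries, had a mean of 3488 RPKM in 2R and 3322 in 2NS.

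After 2 h back in air, 359 of the 13704 tested genes (2.62%) were called higher in 2R and 265 (1.93%) lower. These shares are the baseline for every count of called group members below. By the means, 8095 of the 16190 measured genes were higher and 8095 lower, as the centring sets. The same test called 12.7% of 12939 genes higher and 12.4% lower in 2HS against the same 2NS libraries. Among the genes that rose in 2R, 157 had risen at least 2-fold and 17 at least 4-fold, while 80 and 1 of those that fell had done so. The 2R and 2NS libraries did not overlap for 358 of the 359 genes called higher and for all 265 called lower, a separation that the call itself favours. The share over all tested genes was not counted, so this separation has no baseline here. Without centring, 706 genes were called higher and 178 lower. In the authors' means of all 16190 genes, 232 (1.43%) were at least 2-fold higher in 2R and 110 (0.679%) at least 2-fold lower, and of the 2486 untested genes 40 (1.61%) and 25 (1.01%) were. Leaving out the first 2R library gave 99 genes higher and 77 lower, leaving out the second gave 532 and 310, and leaving out the third gave 165 and 114. Without the first, the second or the third 2NS library there were 157, 176 and 138 genes higher and 82, 97 and 93 lower. In all 6 of these fits, 93 of the 359 genes were called higher and 53 of the 265 lower.

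The median core hypoxia gene was near its level in air. The list of genes that Arabidopsis induces in hypoxia had a median change of 3.73 in 2HS and of 0.15 in 2R, both against 2NS, over 47 measured members. Of the 39 that could be tested in 2R, 4 were called higher and 0 lower, where 2.62% of all tested genes were called higher. By the means, 6 of the 47 members were at least 2-fold higher in 2R and 0 lower, against 1.43% and 0.679% of all measured genes. Of the 8 untested members, 4 were at least 2-fold higher, against 1.61% of all untested genes. Reads of abundant genes were resolved less often, so members still high in 2R were less likely to be tested. The count of called members may therefore understate what had not returned. Without the second 2R library 6 members were called, and without any one of the other 5 libraries 2. LBD41 (AT3G02550), a transcription factor that marks the hypoxia response, had 34.7, 27.4 and 34.9 RPKM in the 2R libraries, against 25.2, 28.1 and 26.7 in the 2NS libraries, and a mean of 1817 RPKM in 2HS. The 2R and 2NS libraries overlapped, and the change was 0.14 ± 0.15 (adjusted p = 0.662). SUS4 (AT3G43190), a sucrose synthase, had a mean of 1.14 RPKM in 2R, 80.7 in 2HS and 1.03 in 2NS. PCO1 (AT5G15120) and PCO2 (AT5G39890), the oxygenases that mark the ethylene response factors for degradation, had changes of -0.29 ± 0.19 (adjusted p = 0.460) and -0.26 ± 0.21 (adjusted p = 0.551). HRA1 (AT3G10040), which restrains the hypoxia factor RAP2.12, had a change of -0.11 ± 0.15 (adjusted p = 0.756).

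The 4 called members were PDC1, SUS1, FTM1 and AT3G23170. PDC1 (AT4G33070), pyruvate decarboxylase, which makes the acetaldehyde of ethanol fermentation, had 20.9, 17.9 and 22.2 RPKM in 2R against 9.47, 8.41 and 9.78 in 2NS. Its groups did not overlap, and it rose by 0.94 ± 0.15 (adjusted p = 0.00599). SUS1 (AT5G20830), another sucrose synthase, had 9.65, 10.1 and 9.10 RPKM in 2R against 3.17, 2.92 and 4.12 in 2NS, and rose by 1.16 ± 0.16 (adjusted p = 0.00328). The desaturase gene FTM1 (AT1G43800; also SAD6) rose by 0.72 ± 0.15 and the unannotated AT3G23170 by 0.76 ± 0.16. Both of these calls were lost when any library but the second 2R one was left out, with adjusted p up to 0.0880 and 0.114. ADH1 (AT1G77120), alcohol dehydrogenase, could not be tested, since its 2R reads were not resolved. Its mean was 169 RPKM in 2R, 1238 in 2HS and 19.8 in 2NS, and its 3 2NS libraries had 22.2, 21.1 and 15.9 RPKM. By the means, ADH1 was 2.91 higher in 2R, the highest value of the list. AT3G03270, annotated as an adenine nucleotide alpha hydrolase-like protein and also not tested, had means of 60.4 RPKM in 2R, 55.7 in 2HS and 11.4 in 2NS. AT4G27450, an aluminium-induced protein, had 95.4, 399 and 21.5 RPKM in the same groups. HB1 (AT2G16060), the phytoglobin that scavenges nitric oxide, was not tested either and had means of 250.1, 817 and 113 RPKM.

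The hypoxia-induced transcription factors HRE1 and HRE2 were not called. HRE2 (AT2G47520) had 48.2, 24.5 and 53.3 RPKM in 2R against 17.1, 15.8 and 23.0 in 2NS, and a change of 0.96 ± 0.26 (adjusted p = 0.0633). All 3 2R libraries lay above the 2NS range, with the second close to it. HRE1 (AT1G72360) had 10.2, 5.06 and 8.21 RPKM in 2R against 5.52, 2.94 and 2.48 in 2NS, with a change of 0.81 ± 0.27 (adjusted p = 0.109).

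**Figure D1:**
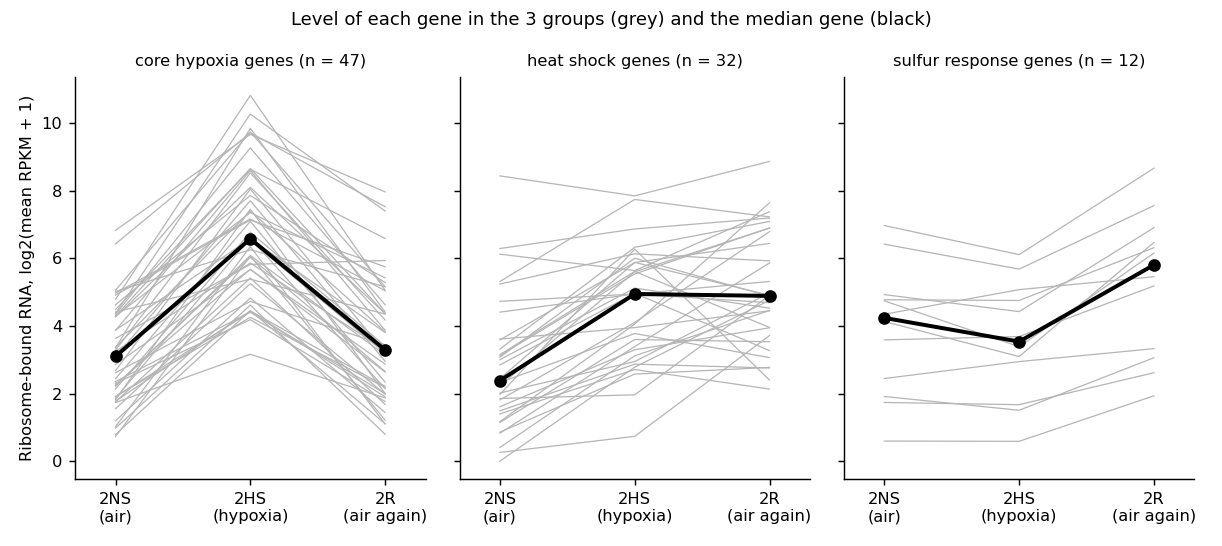
Mean RPKM (log2 of RPKM + 1, vertical axis) in ribosome-bound RNA of 2NS, 2HS and 2R for each measured member of 3 gene lists (grey lines), with the median member in black. Core hypoxia genes peaked in 2HS and their median was near 2NS again in 2R, heat shock genes stayed above 2NS in 2R with a median change of 1.80, against 2.18 in 2HS, and sulfur response genes were highest in 2R.

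Heat shock genes were among the largest rises. Small heat shock proteins hold unfolding proteins in a state from which HSP70 and HSP101 machines can refold them. The list was written with earlier results of these data known. Of 32 measured heat shock genes, 24 were tested, 16 were called higher and 0 lower, against 2.62% and 1.93% of all tested genes. All 32 were higher in 2R by the means. The list's median change was 1.80 in 2R and 2.18 in 2HS, against 0 for all genes by the centring. Between 15 and 16 members were called whichever library was left out, and 15 were called in all 6 of those fits. Summed over the tested members, the list stood at 978, 642 and 719 RPKM in the 2R libraries and at 140.0, 126 and 114 RPKM in the 2NS libraries.

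Small heat shock proteins of several compartments stood out, but not all members of their family were higher. Of 35 HSP20-type small chaperones, a group formed after the values were seen, 29 were measured. Of these 29, 22 were higher and 7 lower by the means. Their median change was 0.61. Of 24 tested, 11 were called higher and 0 lower, against 2.62% and 1.93% of all tested genes. HSP23.6-MITO (AT4G25200), a mitochondrial one, had 71.5, 44.0 and 56.7 RPKM in 2R against 1.13, 0.861 and 0.334 in 2NS. Its change was 4.92 ± 0.24 (adjusted p = 2.15e-07). HSP17.6II (AT5G12020), a cytosolic class II protein, had 152.7, 81.7 and 95.8 RPKM in 2R against 2.66, 1.74 and 3.14 in 2NS, a change of 4.83 ± 0.36 (adjusted p = 6.5e-06). HSP17.6A (AT5G12030), of the same class, had 159, 88.9 and 107 RPKM in 2R against 4.81, 4.05 and 2.24 in 2NS (4.55 ± 0.30, adjusted p = 2.23e-06). ATHSP22.0 (AT4G10250), of the endoplasmic reticulum, had 204, 88 and 74 reads in the 2R libraries and 0 in each 2NS library. Set against 3 reads over the 3 2NS libraries, it was at least 163-fold higher in 2R. HSP21 (AT4G27670), of the chloroplast, had 13.2, 13.4 and 9.85 RPKM in 2R against 0.292, 0.297 and 0 in 2NS, and rose by 3.34 ± 0.19 (adjusted p = 8.15e-07). ATHSP22.0 and HSP21 lay below 1 RPKM in every 2NS library and passed the filter only through the other groups. For none of the 5 genes HSP23.6-MITO, HSP17.6II, HSP17.6A, ATHSP22.0 and HSP21 did the groups overlap. In the second 2R library HSP23.6-MITO, HSP17.6II and HSP17.6A were lowest, yet far above every 2NS library.

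The cytosolic class I genes HSP17.4 (AT3G46230), AT1G07400, HSP18.2 (AT5G59720) and AT1G59860 rose by 3.88 ± 0.30, 3.69 ± 0.24, 2.77 ± 0.28 and 2.35 ± 0.17. AT1G53540, annotated as HSP20-like, could not be tested. Its mean was 200.0 RPKM in 2R, 15.7 in 2HS and 1.25 in 2NS, and its change of 6.36 in the means was the highest of all genes on this scale. AT2G29500, also HSP20-like and not tested, had means of 119 RPKM in 2R, 45.6 in 2HS and 7.74 in 2NS. Reads of near-identical class I and class II copies may have been divided among them by the authors' mapping, so the values of single copies are uncertain. Further chaperones followed. HSP101 (AT1G74310), the disaggregase, rose by 1.68 ± 0.17, Hsp70b (AT1G16030) by 2.10 ± 0.32 and the co-chaperone Hop3 (AT4G12400), outside the list, by 2.31 ± 0.16. HSP90.1 (AT5G52640) was not tested and had means of 86.1 RPKM in 2R, 57.9 in 2HS and 11.04 in 2NS, while HSP70 (AT3G12580) had 149, 214 and 38.9 RPKM. The heat shock factor HSFA2 (AT2G26150), which drives such genes, rose by 1.12 ± 0.29 (adjusted p = 0.0479), a call that held only without the third 2R library (adjusted p up to 0.175). MBF1C (AT3G24500) had a change of 0.69 ± 0.36 (adjusted p = 0.320).

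Some of these genes were higher after reoxygenation than during hypoxia. In a test of 2R against 2HS, which called 19.1% of 13306 genes higher and 15.9% lower, 8 of 22 tested heat shock genes were higher in 2R and 6 lower. ROF2 (AT5G48570), an immunophilin co-chaperone, had 33.7, 25.5 and 27.6 RPKM in 2R against 3.33, 2.76 and 1.75 in 2NS, and a mean of 2.90 in 2HS. It was 2.78 higher in 2R than in 2HS (adjusted p = 6.16e-07). HSP21 was 2.81 higher in 2R than in 2HS (adjusted p = 3.11e-07), HSP17.6II 2.63 (adjusted p = 0.000135) and HSP23.6-MITO 2.31 (adjusted p = 1.53e-05). In contrast, AT1G59860 was 1.14 lower in 2R than in 2HS (adjusted p = 0.000411), and so was DREB2A (AT5G05410), a stress transcription factor, by 4.00 (adjusted p = 1.69e-07). DREB2A had 3.60, 4.22 and 5.03 RPKM in 2R against 3.28, 3.65 and 1.86 in 2NS, groups that overlapped.

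**Figure D2:**
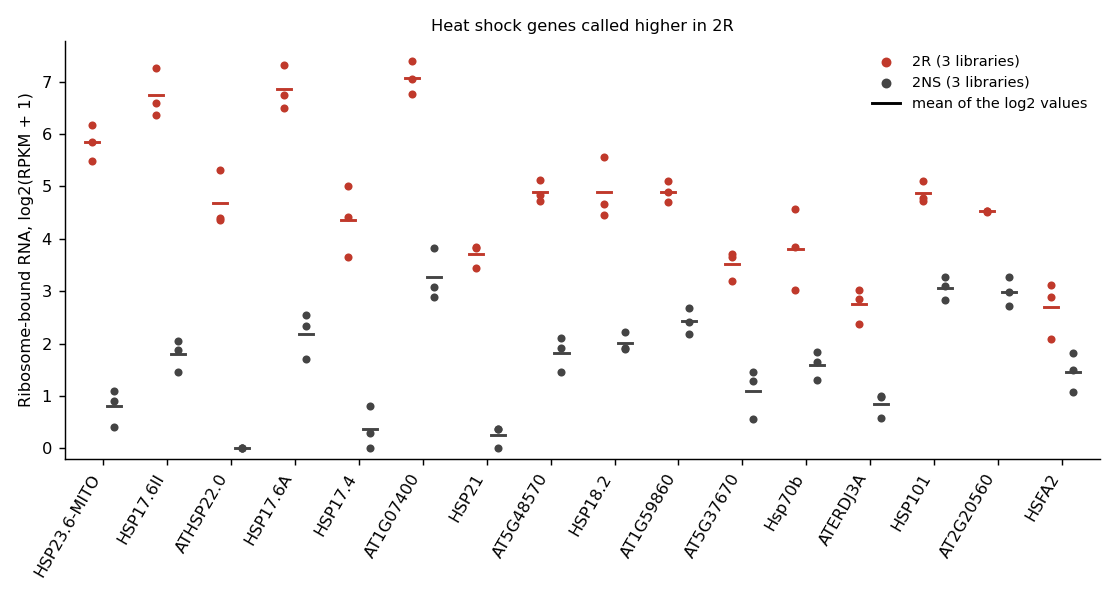
Levels of the 16 heat shock genes called higher (log2 of RPKM + 1, vertical axis) in each of the 3 2R libraries (red, left of each pair) and 3 2NS libraries (grey, right of each pair), with the mean of the log2 values as a bar. The genes were chosen by their call, which itself favours groups that do not overlap (358 of all 359 genes called higher, with no share counted over all tested genes). The rises differ in size, from HSFA2 at 1.12 to HSP23.6-MITO at 4.92, and ATHSP22.0 has no read in 2NS.

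A second group that stood above air was the response to sulfur shortage. These genes take up and reduce sulfate for cysteine and glutathione, or are induced when sulfur is short. Of 12 measured members, 8 were tested, 7 were called higher and 0 lower, against 2.62% and 1.93% of all tested genes. All 12 were higher by the means. The median change was 1.26 in 2R and -0.18 in 2HS, both against 2NS. Without the first 2R, first 2NS or second 2NS library 4 members were called, without the third 2R or the third 2NS library 5, and without the second 2R library 8. LSU3 (AT3G49570), one of the RESPONSE TO LOW SULFUR proteins, had 95.4, 59.0 and 109 RPKM in 2R against 16.4, 17.4 and 15.9 in 2NS. The groups did not overlap, and the change was 2.18 ± 0.20 (adjusted p = 6.24e-05). LSU2 (AT5G24660) had 111, 102 and 145 RPKM in 2R against 32.6, 26.7 and 29.3 in 2NS (1.85 ± 0.16, adjusted p = 3.82e-05). LSU1 (AT3G49580) rose by 1.42 ± 0.29, a call that was lost without the first or the third 2R or the first or second 2NS library (adjusted p up to 0.0762). ATSDI1 (AT5G48850), which limits glucosinolate synthesis under low sulfur, rose by 1.025 ± 0.156 (adjusted p = 0.00328). BGLU28 (AT2G44460), a beta-glucosidase, rose by 1.18 ± 0.23 (adjusted p = 0.0123), and was not called without the first or the second 2NS library (adjusted p up to 0.0524). SULTR1;2 (AT1G78000), the main sulfate importer of roots, rose by 0.77 ± 0.18 (adjusted p = 0.0292), a call that held only without the second 2R library (adjusted p up to 0.106). The reductase genes APR1, APR2 and APR3, which commit sulfate to reduction, were not tested. APR3 (AT4G21990) had means of 407 RPKM in 2R, 68.3 in 2HS and 125 in 2NS, APR2 (AT1G62180) 70.5, 9.47 and 25.8 RPKM, and APR1 (AT4G04610) 188, 50.4 and 84.8 RPKM. LSU3 and LSU2 were 3.17 and 2.301 higher in 2R than in 2HS (adjusted p = 2.96e-07 and 1.16e-06).

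Genes of phosphate starvation, a group put together after the values were seen, were also above air. Of 11 measured members, 8 were tested and 6 were called higher, against 2.62% of all tested genes. The median change was 1.11 in 2R and 0.63 in 2HS. The count was 3 without the first 2R or the third 2NS library, 4 without the third 2R or the second 2NS library, 5 without the first 2NS library and 7 without the second 2R library. SPX1 (AT5G20150), a phosphate sensor, had 29.8, 19.1 and 24.5 RPKM in 2R against 6.26, 6.56 and 8.34 in 2NS, and a mean of 58.0 in 2HS. It rose by 1.53 ± 0.18 (adjusted p = 0.00123). SPX3 (AT2G45130) rose by 1.29 ± 0.18 (adjusted p = 0.00194), and the phospholipase D gene PLDP2 (AT3G05630) by 1.34 ± 0.23 (adjusted p = 0.00616). PHT1;4 (AT2G38940), a phosphate importer, had a change of -0.11 in the means and was not called.

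**Figure D3:**
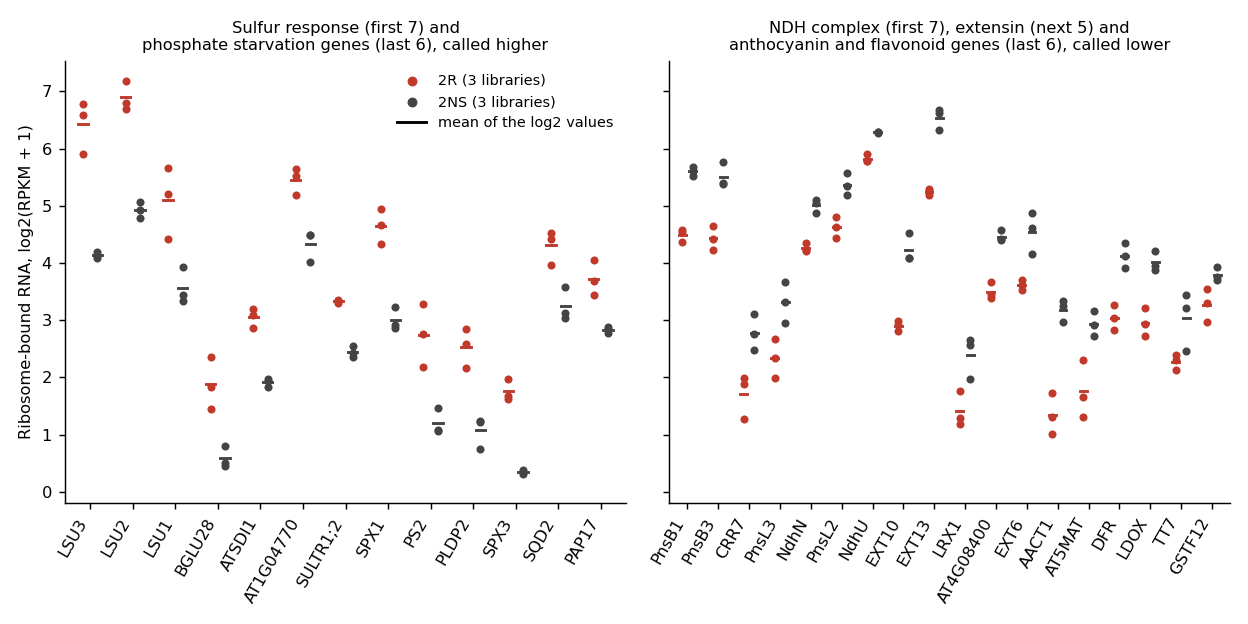
Levels (log2 of RPKM + 1, vertical axis) in each 2R library (red, left of each pair) and each 2NS library (grey, right of each pair), with the mean of the log2 values as a bar. The left panel shows the 7 sulfur response and 6 phosphate starvation genes called higher, and the right panel the 7 NDH complex, 5 extensin and 6 anthocyanin and flavonoid genes called lower.

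Oxidative and mitochondrial stress genes were above air in part, with counts that depended on single libraries. Mitochondrial retrograde genes, which respond to a blocked respiratory chain, had a median change of 0.51 in 2R and -0.63 in 2HS. Of 10 tested members 3 were called higher, against 2.62% of all tested genes. AOX1D (AT1G32350), an alternative oxidase, had 8.48, 2.16 and 12.8 RPKM in 2R against 0.742, 1.22 and 0.876 in 2NS, and rose by 1.83 ± 0.39 (adjusted p = 0.0184). AT5G09570, a Cox19-like protein, had 14.1, 6.26 and 19.2 RPKM in 2R against 1.55, 2.86 and 4.81 in 2NS (1.64 ± 0.34, adjusted p = 0.0170). NDA2 (AT2G29990), an alternative NADH dehydrogenase, rose by 0.81 ± 0.21 (adjusted p = 0.0469). In all 3 genes the second 2R library was the lowest of its group. The 3 calls were lost in most fits without 1 library, with adjusted p up to 0.0918, 0.0828 and 0.176. The list's count was 6 without that library, 1 without the second or the third 2NS library, and 0 without the first 2R, the third 2R or first 2NS library. AT2G21640, a marker of oxidative stress, had 36.9, 14.1 and 36.8 RPKM in 2R against 10.6, 10.8 and 10.7 in 2NS and was not called (1.13 ± 0.30, adjusted p = 0.0524).

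Of 11 tested antioxidant genes, 2 were called higher, where 2.62% of all tested genes were. Both were glutathione transferases of the tau class, which conjugate glutathione to reactive compounds. The count was 4 without the second 2R library and 1 without any one of the others. Over that class as a whole, a group made after the values were seen, 4 of 17 tested members were called higher and 0 lower. The class count was 6 without the second 2R library, 2 without the second or the third 2NS library and 1 without any of the other 3. GSTU25 (AT1G17180) had 61.5, 37.4 and 56.9 RPKM in 2R against 20.1, 23.3 and 20.1 in 2NS and rose by 1.11 ± 0.19 (adjusted p = 0.00575). GSTU24 (AT1G17170) was not tested, and its mean was 158 RPKM in 2R, 28.1 in 2HS and 29.8 in 2NS. VTC2 (AT4G26850), which commits sugars to ascorbate, had means of 138, 91.4 and 59.0 RPKM.

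Hormone and growth genes were examined by list. Of 17 tested auxin and growth genes, 7 were called higher and 1 lower, against 2.62% and 1.93% of all tested genes. The median change was 0.53 in 2R and -0.28 in 2HS. The count of higher members was 2 without the first 2R or the third 2NS library, 3 without the first or the second 2NS library and 6 without the second or the third 2R library. PIF4 (AT2G43010), a transcription factor that promotes elongation growth, had 3.15, 7.77 and 3.02 RPKM in 2R against 0.860, 0.683 and 0.794 in 2NS. It rose by 1.45 ± 0.26 (adjusted p = 0.00809), and here the second 2R library was the highest. IAA1 (AT4G14560), an auxin-induced repressor, rose by 1.04 ± 0.16 (adjusted p = 0.00359). IAA19 (AT3G15540) rose by 1.04 ± 0.20 (adjusted p = 0.0123), and was not called without the first 2R or the third 2NS library (adjusted p up to 0.0707). The member that fell was XTH17 (AT1G65310), a wall-loosening enzyme, with 8.50, 13.9 and 7.38 RPKM in 2R against 20.7, 16.9 and 14.1 in 2NS (-0.88 ± 0.21, adjusted p = 0.0304). That call held only without the second 2R library (adjusted p up to 0.131). Among 11 tested ethylene genes, 3 were called higher, 4 without the second 2R library and 1 without any one of the others. ACS8 (AT4G37770), which makes the ethylene precursor ACC, had 2.64, 3.54 and 2.72 RPKM in 2R against 0.859, 0.818 and 0.760 in 2NS and rose by 1.00 ± 0.17 (adjusted p = 0.00630). Like PIF4, ACS8 lay below 1 RPKM in every 2NS library and passed the filter only through the other groups. All 20 measured ethylene genes were higher in 2R by the means, with a median of 0.32, where 8095 of all 16190 measured genes were higher.

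Dehydration genes had a median change of 0.44, and 2 of 13 tested members were called higher, against 2.62% of all tested genes. The count was 3 without the second 2R library, 2 without the second 2NS library and 1 without any one of the other 4. RD20 (AT2G33380), a caleosin of lipid droplets, had 14.9, 9.99 and 14.7 RPKM in 2R against 2.78, 4.73 and 2.29 in 2NS (1.64 ± 0.22, adjusted p = 0.00127). KIN2 (AT5G15970) and ERD10 (AT1G20450), hydrophilic protective proteins, were not tested. KIN2 had means of 584 RPKM in 2R, 164 in 2HS and 188 in 2NS, and ERD10 had 360.4, 339.9 and 135. COR15A (AT2G42540) varied widely within 2R, with 12.2, 38.3 and 9.11 RPKM against 6.85, 10.7 and 3.56 in 2NS, and was not called (adjusted p = 0.180). GAD4 (AT2G02010), a glutamate decarboxylase that makes GABA, rose by 1.505 ± 0.162 (adjusted p = 0.000241), with 13.4, 11.3 and 15.2 RPKM in 2R against 3.63, 3.41 and 3.83 in 2NS. It was the one member called of 5 tested genes for alanine, GABA and glutamate. AOC1 (AT3G25760) of jasmonate synthesis, called among 13 tested jasmonate genes, rose by 1.23 ± 0.26, a call lost without the first or the third 2R or the first or the third 2NS library (adjusted p up to 0.0920).

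Of 16 measured clock genes, 9 were higher in 2R and 7 lower by the means, with a median of 0.20. CCA1 (AT2G46830) and LHY (AT1G01060), morning-phased repressors, were not tested. CCA1 had means of 57.6 RPKM in 2R, 6.85 in 2HS and 17.2 in 2NS, and its 2NS libraries had 18.9, 18.5 and 14.3. LHY had means of 63.3, 9.43 and 27.9 RPKM. Of 12 tested clock genes, LNK2 (AT3G54500), a coactivator, was called, with 8.00, 17.0 and 9.08 RPKM in 2R against 3.53, 3.31 and 2.88 in 2NS (1.36 ± 0.22, adjusted p = 0.00486). The evening genes TOC1 (AT5G61380), ELF4 (AT2G40080), LUX (AT3G46640) and PRR5 (AT5G24470) were not called, with changes of 0.06 ± 0.14, -0.55 ± 0.23, -0.36 ± 0.21 and -0.37 ± 0.21. GI, PRR7 and PRR9 lay below the filter, with means of 0.156, 0.837 and 0.162 RPKM in 2R and 0.159, 0.388 and 0.0289 in 2NS. B-box factors, light-signalling regulators grouped after the values were seen, were called higher in 6 of 20 tested members and lower in 2. With 1 library left out, 4 to 6 were higher and 0 to 2 lower. Over all tested genes the shares were 2.62% higher and 1.93% lower. BBX30 (AT4G15248) had 7.94, 7.16 and 9.24 RPKM in 2R against 1.22, 1.32 and 1.23 in 2NS and rose by 1.89 ± 0.20 (adjusted p = 0.000237). COL9 (AT3G07650) fell by 1.21 on the log2 scale, with 4.43, 2.87 and 5.61 RPKM in 2R against 10.8, 8.19 and 11.3 in 2NS (adjusted p = 0.0156). The call was lost without the first 2R, the first 2NS or the third 2NS library (adjusted p up to 0.0703).

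Chloroplast NDH, cell wall and pigment genes were among those that fell, and nitrate genes were lower by the means. Larger falls than those of NDH genes also lay outside these groups. AT3G62950, AT3G19430, AT5G22920 and AT2G43550 changed by -1.82, -1.72, -1.57 and -1.42. CRK30 (AT4G11460), AT4G18205, AT5G06270 and AT1G65570 changed by -1.42, -1.36, -1.32 and -1.30. Of these calls, only that of AT2G43550 was lost in a fit without 1 library (the first or the third 2NS one). The chloroplast NDH complex carries electrons around photosystem I. In a group collected by annotation after the values were seen, 7 of 19 tested NDH genes were called lower and 0 higher, and 19 of 20 measured were lower by the means, against 1.93% of all tested genes called lower. Without the first or the third 2NS library 3 were called, without the first or the third 2R library 4, without the second 2NS library 5 and without the second 2R library 7. PnsB1 (AT1G15980), a subunit, had 19.7, 22.2 and 22.9 RPKM in 2R against 50.4, 44.8 and 47.9 in 2NS. It fell by 1.23 on the log2 scale (SE 0.14, adjusted p = 0.000997), with groups far apart. PnsB3 (AT3G16250) had 20.4, 17.8 and 24.0 RPKM in 2R against 40.5, 41.3 and 53.3 in 2NS (-1.20 ± 0.16, adjusted p = 0.00147). In 2HS their means were 74.2 and 67.3 RPKM. Nuclear photosynthesis genes of the light-harvesting complexes, photosystems and Rubisco could not be tested but for 1 of 32, and their median change in the means was -0.34.

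Extensins are structural glycoproteins of the cell wall, several of them of root hairs. Of 15 tested members, again grouped by annotation after the values were seen, 5 were called lower and 0 higher, against 1.93% and 2.62% of all tested genes. Between 4 and 7 were called lower when 1 library was left out. EXT13 (AT5G35190) had 35.4, 38.4 and 37.5 RPKM in 2R against 79.6, 101.7 and 97.4 in 2NS, and a mean of 33.5 in 2HS. It fell by 1.41 on the log2 scale (SE 0.20, adjusted p = 0.00205). EXT10 (AT5G06640) had 6.90, 6.02 and 6.54 RPKM in 2R against 16.0, 21.96 and 15.9 in 2NS (-1.45 ± 0.19, adjusted p = 0.00133). XTH25 (AT5G57550), a xyloglucan-modifying enzyme outside the extensin group, fell by 1.55 on the log2 scale (SE 0.21, adjusted p = 0.00133). The list of root hair markers had 2 of 5 members above the filter, and its summed level was 3.40 to 6.39 RPKM in the 3 2R libraries and 7.13 to 11.1 RPKM in the 3 2NS libraries. LRX1 (AT1G12040), a root hair wall protein that also counts among the extensins, fell by 1.10 on the log2 scale, a call lost without the first or the third 2R or the first or second 2NS library (adjusted p up to 0.0752). PRP3 (AT3G62680), the other measured marker, had a change of -0.68 ± 0.20 (adjusted p = 0.0742). No root hair marker was listed at 0 in either group. Of the root endodermis markers, 0 of 5 tested were called by limma, and 1 was called lower without the second 2R library. All 5 were lower by the means, with a median of -0.48, as for the extensins, at 26.9 to 43.5 RPKM in sum in 2R and 36.3 to 49.9 in 2NS. Fewer cells of a type and less RNA per cell cannot be told apart in whole seedlings, and the part of cell makeup in these changes was not tested.

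In the anthocyanin and flavonoid pathway, a group made after the values were seen, 6 of 11 tested members were called lower and 0 higher. Of all tested genes 1.93% were called lower. Between 4 and 6 members were called lower when 1 library was left out. DFR (AT5G42800), which leads into anthocyanins, had 8.59, 7.23 and 6.11 RPKM in 2R against 14.04, 19.4 and 16.5 in 2NS (-1.20 ± 0.21, adjusted p = 0.00640). LDOX (AT4G22880), the next enzyme, fell by 1.17 on the log2 scale (SE 0.18, adjusted p = 0.00320). AACT1 (AT5G61160) is an acyltransferase that was counted in this group, though its place in the pathway was not tested. It had 1.023, 1.47 and 2.29 RPKM in 2R against 9.12, 6.80 and 8.48 in 2NS. It fell by 1.95 on the log2 scale (SE 0.22, adjusted p = 0.000316), and its mean in 2HS was 1.29 RPKM. PAP1 (AT1G56650), the MYB factor of the pathway, had a change of 0.20 in the means and was not called.

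Nitrate assimilation genes, grouped after the values were seen, were abundant and mostly untested. All 18 measured were lower by the means, where 8095 of all 16190 measured genes were. Their median was -0.54 in 2R and 0.45 in 2HS. NIA1 (AT1G77760), a nitrate reductase, had means of 143 RPKM in 2R, 1221 in 2HS and 520.3 in 2NS, a change of -1.98. NIA2 (AT1G37130) changed by -0.46 in the means. BT1 (AT5G63160), a nitrate-responsive scaffold protein, had 20.3, 14.7 and 17.4 RPKM in the 2R libraries and a mean of 58.4 in 2NS. GLT1 (AT5G53460), glutamate synthase, and ASN2 (AT5G65010), an asparagine synthetase, changed by -1.30 and -1.25 in the means. G6PD3 (AT1G24280), which supplies reducing power, was called lower (-0.84 ± 0.19, adjusted p = 0.0263), but not without the third 2R or the first or second 2NS library (adjusted p up to 0.114). Of 9 tested dark and sugar starvation genes 1 was called higher and 1 lower, where 2.62% and 1.93% of all tested genes were. SEN1 (AT4G35770) had 89.0, 94.7 and 56.5 RPKM in 2R against 37.4, 28.3 and 27.03 in 2NS and rose by 1.21 ± 0.21, a call lost without the first 2R or the third 2NS library (adjusted p up to 0.0587). DIN10 (AT5G20250), a raffinose synthase-like gene, was not tested and had means of 53.3 RPKM in 2R, 440.7 in 2HS and 126 in 2NS. AT3G15450 fell by 1.22 on the log2 scale, with 49.3, 20.3 and 43.1 RPKM in 2R against 70.3, 70.9 and 90.4 in 2NS, but was not called without any one of the 2NS libraries (adjusted p up to 0.126).

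By limma 0 of 10 tested cytosolic ribosomal protein genes, 0 of 8 ribosome biogenesis genes and 0 of 9 cell cycle genes were called, with median changes of -0.06, 0.24 and -0.13. Among all tested genes 2.62% were called higher and 1.93% lower, so 0 calls in lists this small say little. Of the 27 measured ribosomal protein genes, 17 could not be tested. Ribosomal protein genes had a median of -0.28 in 2HS. The rapid wound and defence transcription genes, at a median of 2.00 in 2HS, had a median of 0.16 in 2R, with 2 of 23 tested members called higher and 1 lower. The higher count was 5 without the second 2R library, 1 without the first or the third 2NS library and 0 without any one of the other 3. WRKY40 (AT1G80840), a defence regulator, had 19.7, 9.96 and 19.8 RPKM in 2R against 8.81, 8.86 and 8.77 in 2NS, and was not called (0.66 ± 0.23, adjusted p = 0.133). ERF104 (AT5G61600), an ethylene response factor, fell by 0.85 on the log2 scale, a call lost without the first or the third library of either group (adjusted p up to 0.0809).

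**Figure D4:**
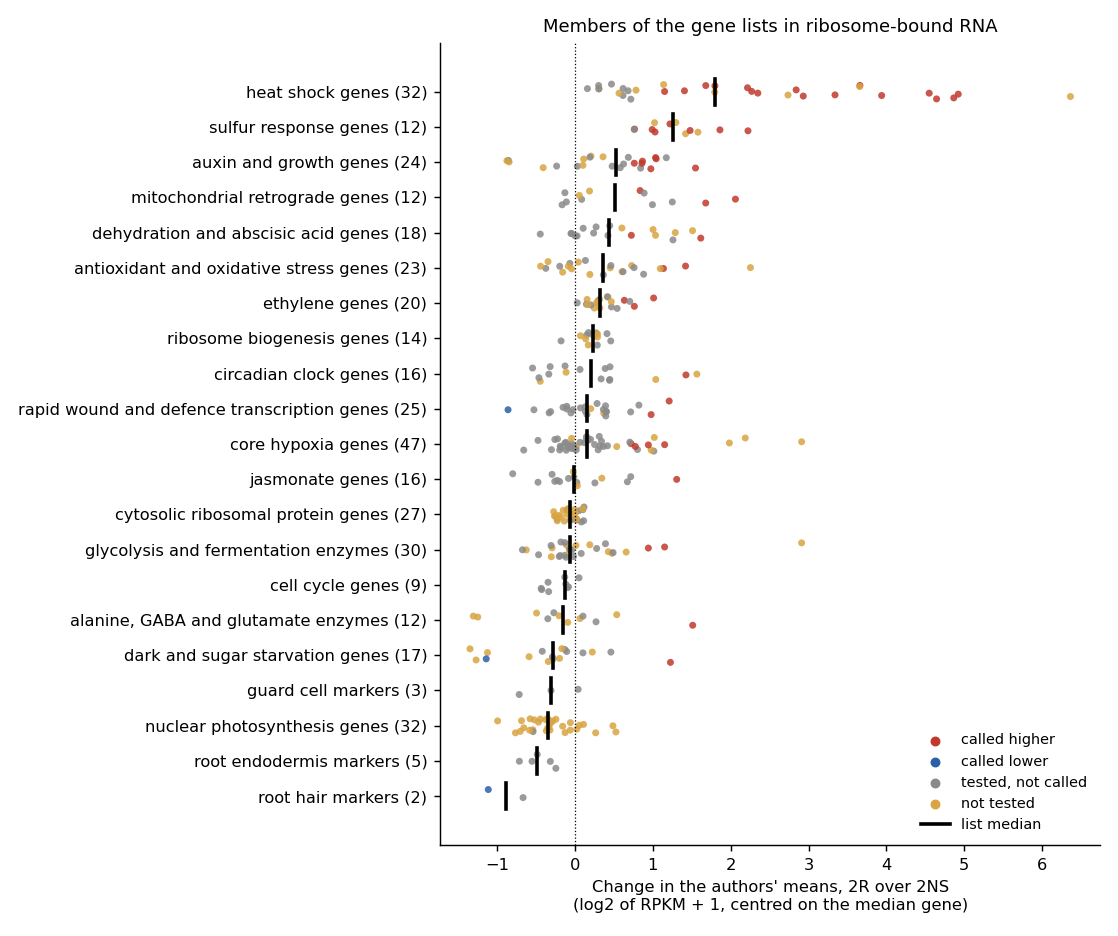
Change of each measured member of 21 gene lists (log2 ratio of RPKM + 1 of the authors' means, 2R over 2NS, centred on the median gene, horizontal axis), one list per row with the number of measured members. Red and blue points were called higher and lower, grey were tested and not called, yellow could not be tested, and the black bar is the list median, which runs from 1.80 for heat shock genes to -0.89 for the 2 root hair markers.

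Poly(A)+ RNA of other seedlings gives values that the TRAP test did not use. These libraries came from another line, pUBQ10:NTF pACT2:BirA, with 1 h of reoxygenation (1R) and with 9 h of darkness in air (9NS), each against 2NS poly(A)+ RNA. The 9 h of 9NS ran past the 8 h of dark of the growth cycle, while 2R was harvested after 4 h. Thus 9NS is not a control matched to 2R in time. On the deposited scale the median gene lay 0.86 higher in 1R and 1.00 higher in 9NS than in 2NS, and limma called 27 genes higher and 7 lower in 1R (0.259% and 0.0672% of 10413) and 8 and 22 in 9NS (0.0754% and 0.207% of 10605). Libraries rescaled by median ratios, a setting chosen after the data were seen, gave 6.94% higher and 6.36% lower in 1R and 6.28% and 7.03% in 9NS, and the values below use it. Both poly(A)+ comparisons share the 2NS libraries. Of the genes called higher in TRAP 2R, 246 were tested in 1R, of which 91 (37.0%) were called higher and 4 lower, while 7.32% of all 9046 genes tested in both were called higher in 1R. In reverse, 13.7% of those genes higher in 1R were called higher in TRAP. Of 262 tested in 9NS, 77 (29.4%) were called higher and 2 lower, where 6.55% of 9160 were, and 12.8% of the genes higher in 9NS were called higher in TRAP. For genes called lower in TRAP, 39 of 191 (20.4%) were lower in 1R, where 5.27% of all were, and 63 of 191 (33.0%) were lower in 9NS, where 6.09% of all were. In reverse, 8.18% of the genes lower in 1R and 11.3% of those lower in 9NS were called lower in TRAP.

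By gene group, each poly(A)+ comparison gave the following values, and the difference between both comparisons was not tested. Of 13 heat shock genes tested in 1R, 9 were called higher and 0 lower, with a median of 1.68, and of 29 tested in 9NS 0 were higher and 1 lower, with a median of 0.07. Of 7 sulfur response genes 5 were higher in 1R (median 1.37), and of 10 in 9NS 1 was higher and 1 lower (median 0.15). Of only 3 phosphate starvation genes tested in 1R 2 were higher (median 0.99), and of 7 in 9NS 0 were higher and 1 lower (median 0.08). LSU3 was 2.72 ± 0.31 higher in 1R (adjusted p = 3.69e-05) and changed by 0.88 ± 0.31 in 9NS (adjusted p = 0.0686). Extensin genes had a median of -0.72 in 1R, with 6 of 14 called lower and 1 higher, and of 0.13 in 9NS, with 1 of 13 called lower. The median of NDH genes was -0.07 in 1R, with 2 of 15 called lower, and -0.75 in 9NS, with 12 of 16 called lower. PnsB3, for one, changed by 0.02 in 1R (adjusted p = 0.951) and by -1.18 in 9NS (adjusted p = 0.000311). Auxin and growth genes had medians of 0.15 in 1R and 0.83 in 9NS, with 4 of 15 called higher and 3 lower in 1R, and 8 of 13 higher and 1 lower in 9NS. CCA1 and LHY were 3.21 and 2.38 higher in 9NS than in 2NS by the poly(A)+ means, and 0.35 and 0.10 in 1R. ADH1, by contrast, was 4.61 higher in 1R and 0.02 in 9NS by those means. Core hypoxia genes had a median of 0.70 in 1R, with 20 of 34 called higher and 2 lower, and of -0.18 in 9NS, with 1 of 42 called higher and 8 lower. HRE2 was 2.83 higher in 1R (adjusted p = 3.93e-06).

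**Figure D5:**
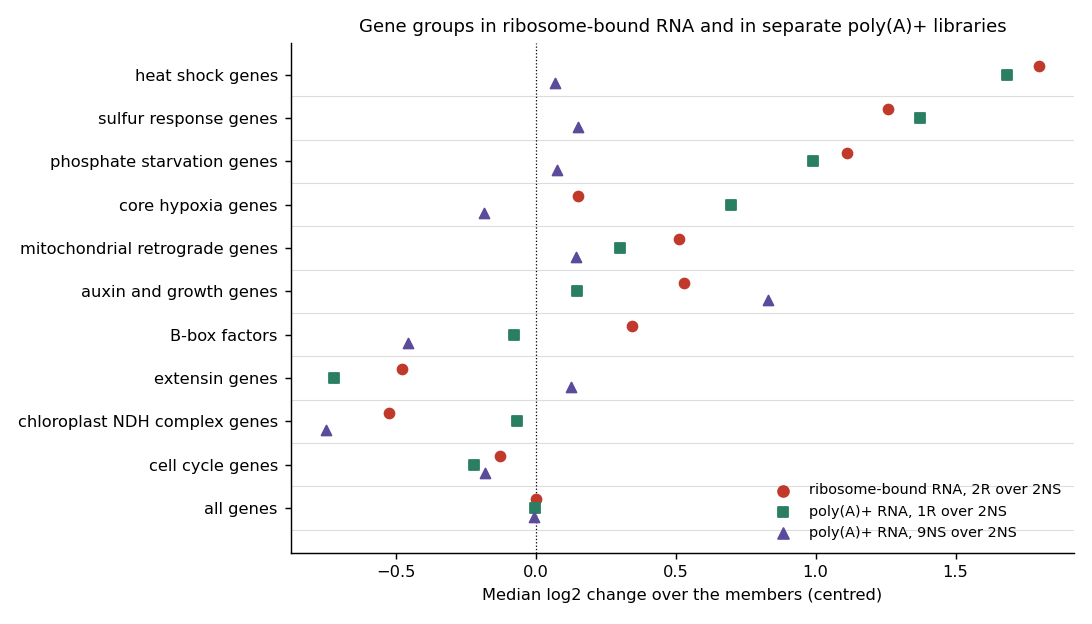
Median log2 change over the members of 10 gene groups and of all genes, in ribosome-bound RNA of 2R over 2NS (red circles, all measured members), poly(A)+ RNA of 1R over 2NS (green squares) and of 9NS over 2NS (purple triangles; tested members only). The 3 medians of a group cover different sets of members, for heat shock 32, 13 and 29 and for phosphate 11, 3 and 7. Medians of heat shock, sulfur and phosphate genes lie high in 2R and 1R and near 0 in 9NS, while NDH genes lie low in 2R and 9NS and near 0 in 1R.

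Chromatin files allowed a description of the genes' upstream regions. An HRE2 peak lay within 1000 bases upstream of the start in 28 of the 359 genes called higher (7.80%), in 10 of the 265 called lower (3.77%) and in 540 of all 13704 tested (3.94%). HRE2 peaks came from 2HS seedlings of the line p35S:C2A HRE2-HA, in which the 35S promoter drives the factor. Peaks of open chromatin in roots of 1R lay there in 60.2% of the genes called higher, 45.7% of those called lower and 55.0% of all tested. In 2NS roots, the shares were 27.3%, 19.6% and 23.0%, and in 2HS roots 51.0%, 35.1% and 43.3%. The lists held 38958, 14399 and 27219 peaks for 1R, 2NS and 2HS, so the shares cannot be compared between conditions.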

How the data were processed

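TRAP-seq, poly(A)+ and peak tables were used. RPKM values were deposited by the authors as 1 mean per group over 3 replicates, per the file headers. Per the submitters' processing notes, Bowtie2, TopHat2 and HOMER were used on TAIR10; their versions and the read counter are not stated there. Of 30 value columns, 22 were not used. Peak lists gave distances to the nearest start as the authors deposited them. RefSeq (TAIR10.1) supplied symbols and gene lengths; these matched the means, times length, to whole reads per library, uniquely for most genes (simulated columns: 100% right). limma 3.58.1 (R 4.3.3) was fitted to log2(RPKM + 1) of all 3 TRAP groups (5 poly(A)+ groups for poly(A)+), with a variance trend. Groups not compared entered only for genes with reads resolved there. Of the 13704 genes, 12904 had all 3 TRAP groups, and the others were fitted on 2R and 2NS alone. The 4 called core hypoxia genes were among the latter. In simulated 2R and 2NS libraries of 13704 genes, 26 of 50 genes raised 2-fold and 49 of 50 raised 4-fold were called, 26 and 46 of 50 lowered, and 11 unchanged genes. The library order follows totals and gives no pairing.

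The comparison, its members and the 21 gene lists were chosen with earlier results of these data known; 8 further groups were formed after the values were seen. One listed antioxidant gene, AT5G67400, is a root hair gene and lay below the filter. Named were the 12 largest called rises and falls, the 10 highest and lowest untested genes, up to 4 called and 3 other members per list, and fixed hypoxia and clock genes. Values are given for those that fall in a group described, for Hop3 and XTH25, and for the other largest called falls. Chosen after their values were seen were Hsp70b, HSP101, HSFA2, MBF1C, DREB2A, ATSDI1, SULTR1;2, APR1, PHT1;4, XTH17, COL9, PAP1, NIA2, LHCB6 and CASP1. A planned search of promoter motifs was not run. Alternatives are in the closing section.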

Additional observations from a re-analysis of the deposited data

How the results depend on the processing

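No paired analysis was possible because the recovered libraries carry no replicate number. Leaving out 1 library gave 99 to 532 genes called higher and 77 to 310 lower, 15 to 16 heat shock, 4 to 8 sulfur response and 2 to 6 core hypoxia genes. Without centring 706 genes were called higher, and 66 were at least 2-fold lower in the means. The voom fit needs reads resolved in all 3 TRAP groups (12904 genes). It held 12 core hypoxia genes and 0 of the 4 called ones, so its 0 calls there say nothing about those 4. By the means, a pseudocount of 0.25 RPKM gave 356 genes at least 2-fold higher and 221 lower, and one of 4 RPKM gave 120 and 32. Rescaled poly(A)+ libraries gave 723 genes higher and 662 lower in 1R and 666 and 746 in 9NS. The causes of the other shifts were not tested. Counts of all genes called, of heat shock and of sulfur genes stayed within 1.5 times under the other settings, namely both pseudocounts, no filter, a mean of at least 5 RPKM, 2R and 2NS alone in the fit, rescaled libraries and voom. Of 74 named genes called, 47 were called with every library left out, and no called one changed sign. Signs of 5 uncalled named genes differed between settings, among them SUS4 (-0.04, 0.07 without centring), HRA1 (AT3G10040; -0.11, 0.01 without centring) and RPL18B (means -0.05, 0.07 without centring). Genes of low level are limited by depth, and abundant ones by unresolved reads.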
